A study of Homo sapiens with 15 samples.

Results

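The BCL2 family is described here through 10 of its genes: the anti-apoptotic BCL2, BCL2L1 and MCL1, the pore formers BAX and BAK1, and the BH3-only genes BID, BIK, BBC3, PMAIP1 and BCL2L11. They were chosen by symbol, and all 10 were among the 12995 genes listed in each of the deposited tables. RNA came from 5 groups of 3 libraries. OKF6 is a normal oral epithelial line. SCC15 and SCC25 are oral cancer lines, here with Cas9 and with a guide to YBX1 that doxycycline switches on. YBX1 is a cold-shock protein that binds RNA and DNA. The SCC15 +YBX1 and SCC25 +YBX1 groups received no doxycycline. The SCC15 -YBX1 and SCC25 -YBX1 groups received 1 µg/ml for 3 days, and the sample labels call them YBX1 knockout while the methods speak of knockdown. The transduced cells were sorted pools, so the -YBX1 groups may mix edited and unedited cells, and the edited share was not analysed here. OKF6 carried no such construct and took no doxycycline. Culture differed too, since SCC15 was kept in DMEM with serum and the other lines in a keratinocyte medium free of serum, so any difference of SCC15 from them holds line and medium, which cannot be told apart. The same SCC15 and SCC25 +YBX1 libraries serve the comparison of lines and the knockdown, and the line comparisons share groups with each other.

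BCL2 family proteins decide whether the outer mitochondrial membrane is opened, the step that releases cytochrome c and starts the caspase cascade of intrinsic apoptosis. BAX and BAK form the pores. BCL2, BCL-XL (from BCL2L1) and MCL1 hold them in check, and the BH3-only proteins either block those guardians or activate the pore formers directly. Much of this control acts on the proteins, through cleavage, phosphorylation and rapid turnover, so RNA levels show only the supply of each message. In squamous cancers BCL-XL and MCL1 are studied as survival factors and drug targets.

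Counted reads lay between 4075290 and 6118501 per library, and a single read was worth 0.138 to 0.226 CPM, counts scaled to the normalised library size. The reads come from the 3′ end of each transcript, about 1 tag per molecule, so that CPM was compared between genes without a correction for length. YBX1 checked the labels. In SCC25 its level was 6.74, 6.31 and 6.62 log2 CPM with +YBX1 and 5.26, 4.70 and 3.65 with -YBX1. In SCC15 it was 5.11, 5.56 and 6.00 log2 CPM with +YBX1 and 3.36, 3.71 and 3.13 with -YBX1. Epithelial markers set SCC15 apart. All 12 listed markers were lower in SCC15 than in SCC25 and 11 of 12 lower than in OKF6 (limma, adjusted p under 0.05), and their summed level was 151 to 180 CPM in SCC15 +YBX1, 6640 to 13800 CPM in SCC25 +YBX1 and 12600 to 24100 CPM in OKF6. TP63 and DSG3 held at most 1 read in any SCC15 library. Of 10 mesenchymal markers 4 were measured, summing to 366 to 396 CPM in SCC15 +YBX1, 709 to 1220 CPM in SCC25 +YBX1 and 114 to 142 CPM in OKF6. Taken singly, 2 were called higher and 2 lower in SCC15 than in SCC25, where limma called 43.6% of all genes. Against OKF6, 3 were called higher and 0 lower in SCC15, where 50.3% of all genes were called. Of 8 immune and endothelial markers only 2 were measured, summing to at most 8.53 CPM in any library. The part of this difference in identity in the SCC15 results was not tested.

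MCL1 carried most of the family's reads in OKF6 and SCC25, and less in SCC15. The 10 genes summed to 564.8, 581.9 and 776.2 CPM in OKF6, 763.4, 741.9 and 777.2 CPM in SCC25 +YBX1, and 517.9, 536.2 and 541.0 CPM in SCC15 +YBX1. The anti-apoptotic genes made up 80.6%, 67.8% and 81.8% of that sum in OKF6 and 80.8%, 74.4% and 82.1% in SCC25 +YBX1. In SCC15 +YBX1 they made up 45.3%, 51.0% and 52.97%, below every library of the other lines. BH3-only genes took the difference, with 41.8% to 52.3% in SCC15 +YBX1, 14.2% to 21.9% in SCC25 +YBX1 and 11.3% to 23.1% in OKF6. BBC3 alone, which encodes PUMA, held 15.9% to 27.5% of the family in SCC15 +YBX1 and 3.64% to 6.61% in SCC25 +YBX1. BAX and BAK1 together stayed between 2.36% and 9.11% in every library. By group mean, the highest BH3-only gene after BBC3 in SCC15 +YBX1 was BID, and BID and BBC3 overlapped there. BID was the second gene of the family in SCC25 +YBX1. BCL2L1 was the second in OKF6, where BID, BAK1 and BBC3 overlapped with it. These shares are a description over 3 libraries a group and carry no test.

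**Figure D1:**
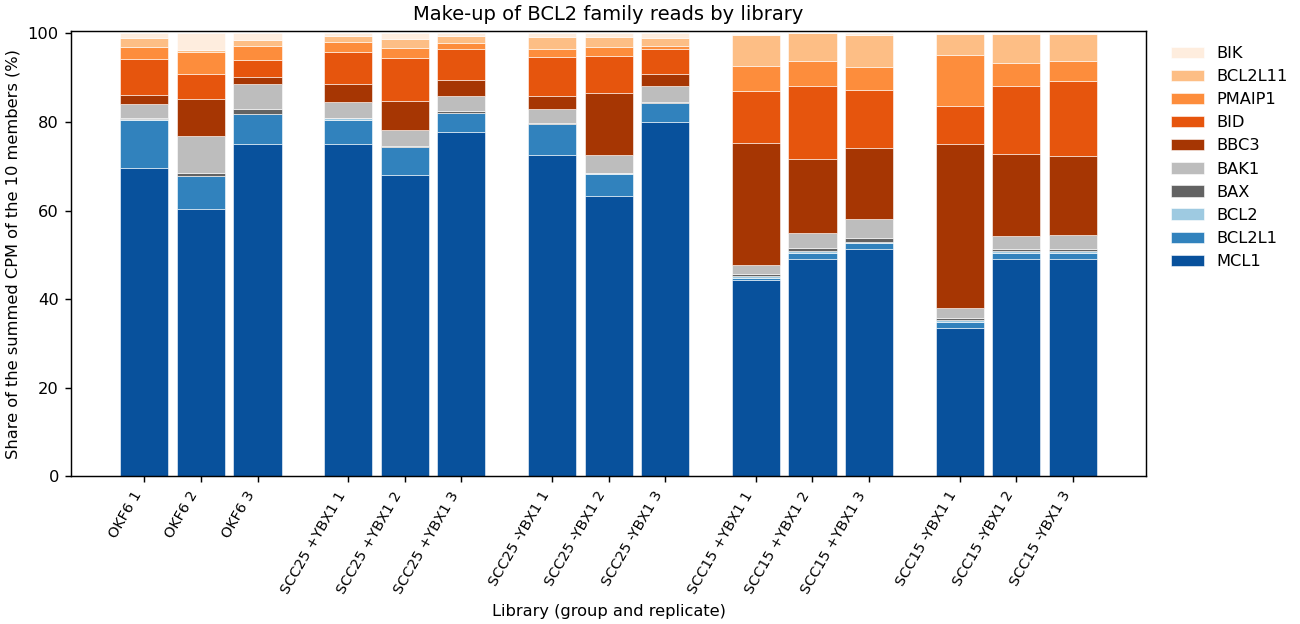
Share of each gene (colours, %) in the summed CPM of the 10 BCL2 family genes, one bar for each of the 15 libraries on the horizontal axis. The blue anti-apoptotic block fills 67.8% to 84.3% of the bars of OKF6 and SCC25 and 35.4% to 52.97% of the SCC15 bars, where the brown BBC3 block is widest.

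Between the cancer lines without knockdown, SCC15 had less BCL2L1, MCL1 and BIK RNA and more BBC3, PMAIP1 and BCL2L11 RNA than SCC25. These 6 of 10 genes passed an adjusted p of 0.05 (limma over all genes, Benjamini-Hochberg). Over all 12995 genes 43.6% were called in this comparison, 20.0% higher and 23.6% lower, so 6 of 10 does not stand far from the background. The median log2 change was 0.65 for the 10 genes and -0.01 for all genes. Against OKF6 the same line had 8 of 10 genes called, 4 higher (BCL2, BID, BBC3 and BCL2L11) and 4 lower (BCL2L1, MCL1, BAK1 and BIK), where 50.3% of all genes were called, 26.9% higher and 23.4% lower. The median log2 change was 0.14 for the 10 genes and 0.10 for all genes. SCC25 and OKF6 differed least: BID alone was called, higher in SCC25, where 30.2% of all genes were called, 18.9% higher and 11.3% lower. The median log2 change there was 0.01 for the family and 0.13 for all genes. Libraries did not overlap for 8 of the 10 genes in SCC15 against SCC25, 7 in SCC15 against OKF6 and 2 in SCC25 against OKF6. Of all genes 66.6%, 54.4% and 43.3% did not overlap in these comparisons. The gaps given gene by gene below are to be read against those shares. Nothing in the labels says that the 3 libraries of a group were separate cultures, so the p-values measure the spread between these libraries, which may be technical.

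**Figure D2:**
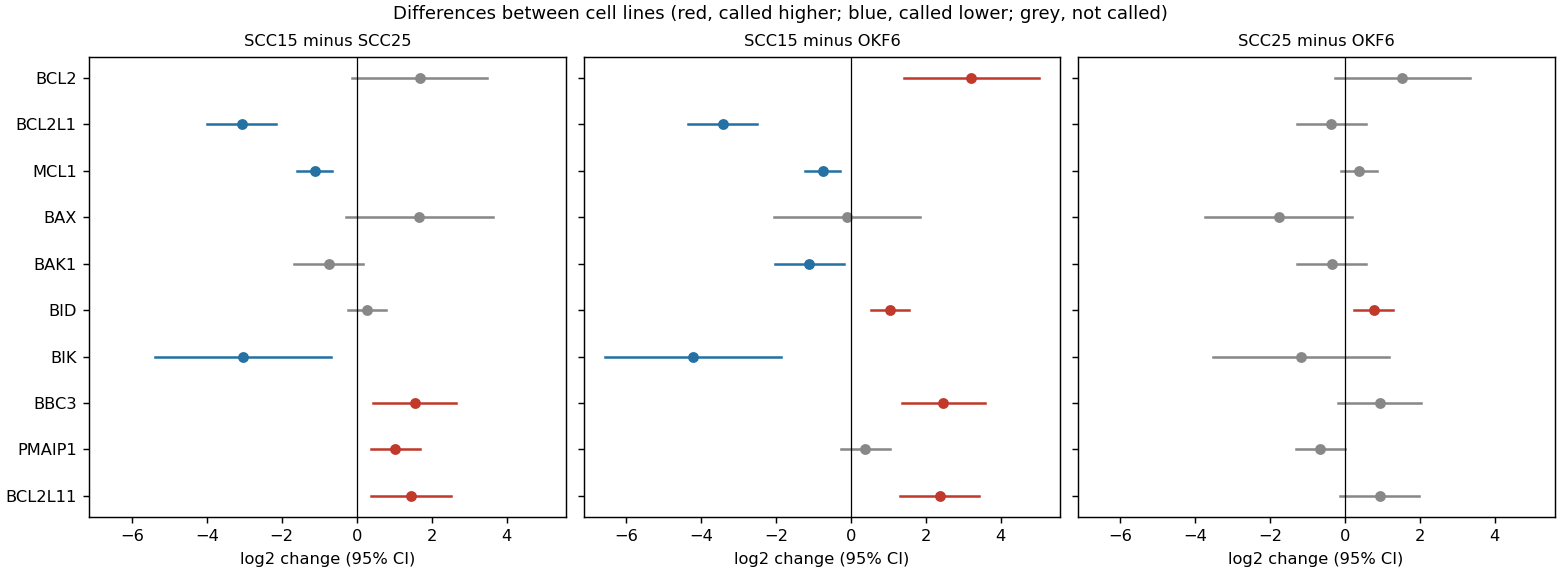
Fitted log2 change (points) and 95% confidence interval (bars) of each gene in the comparisons of SCC15 with SCC25, SCC15 with OKF6 and SCC25 with OKF6, all with +YBX1 cancer cells. BCL2L1 lies at -3.06 and -3.42 in the SCC15 comparisons, and the intervals in the comparison of SCC25 with OKF6 include 0 for every gene but BID.

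BCL2L1 (chr20:31664452-31723989, minus strand, hg38) encodes BCL-XL. Its log2 CPM was 5.94, 5.42 and 5.71 in OKF6, 5.37, 5.56 and 5.06 in SCC25 +YBX1, and 1.19, 2.87 and 2.74 in SCC15 +YBX1. No SCC15 library came near those of the other lines, which overlapped. The gene was 8.36-fold lower in SCC15 than in SCC25 (log2 change -3.06, SE 0.42, limma adjusted p 0.000151) and 10.7-fold lower than in OKF6 (-3.42, SE 0.42, 5.04e-05). Both calls held when any 1 library of the groups was left out. Within SCC15 +YBX1, replicate 1 held 12 reads and the others 43 each. Without replicate 1 the log2 change from SCC25 was -2.52.

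MCL1 (chr1:150560895-150579738, minus strand) encodes a short-lived guardian that binds BAK and several BH3-only proteins. It had the most reads of the 10 genes in every library but 1, namely SCC15 -YBX1 replicate 1. Log2 CPM was 8.62, 8.46 and 9.19 in OKF6, 9.16, 8.98 and 9.24 in SCC25 +YBX1, and 7.84, 8.04 and 8.12 in SCC15 +YBX1. The SCC15 libraries lay below all others. MCL1 was 2.18-fold lower in SCC15 than in SCC25 (log2 change -1.13, SE 0.22, limma adjusted p 0.00159) and 1.69-fold lower than in OKF6 (-0.75, SE 0.22, 0.0134). Each call held with any 1 library left out.

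BCL2 itself (chr18:63123346-63320128, minus strand), the founding member, was scarce. It had 3, 0 and 1 reads in OKF6, 11, 1 and 3 in SCC25 +YBX1, and 14, 15 and 14 in SCC15 +YBX1. The SCC15 libraries lay above all 3 of each other line. The summed reads, 43 in SCC15 +YBX1 and 4 in OKF6, gave a ratio of 9.35 per normalised library size, with an exact 95% interval of 3.40 to 35.9 that covers counting error only. Limma called BCL2 higher in SCC15 than in OKF6 (log2 change 3.22, SE 0.81, adjusted p 0.00699), a value that depends on the prior count of 0.5 reads and was 3.88 without OKF6 replicate 1 and 2.60 without OKF6 replicate 2. With quantiles set equal the log2 change was 1.91 and the adjusted p 0.0731. Against SCC25 the log2 change was 1.68 (SE 0.81, adjusted p 0.119), and without SCC25 +YBX1 replicate 1, the library with 11 reads, it was 2.42 with an adjusted p of 0.0412. Among the other anti-apoptotic genes on the wider list, BCL2L2 is given with that list, and BCL2A1 is not reported here.

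BAX (chr19:48954815-48961798, plus strand), a cytosolic pore former that moves to mitochondria, gave few 3′ reads: 7, 19 and 49 in OKF6, 1, 8 and 13 in SCC25 +YBX1, and 14, 20 and 30 in SCC15 +YBX1. The groups overlapped in all 3 line comparisons. None was called, with log2 changes of 1.67 for SCC15 against SCC25 (limma adjusted p 0.151), -0.10 for SCC15 against OKF6 (0.936) and -1.77 for SCC25 against OKF6 (0.155). The 95% interval of the first ran from -0.28 to 3.63, so that a difference of several fold was not detectable at this depth. Without OKF6 replicate 1 the last change was -2.46 with an adjusted p of 0.0456. The last exon of the annotated canonical transcript is only 267 bases long, and the count depends on where the tags fell.

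BAK1 (chr6:33572547-33580293, minus strand), the pore former that sits in the mitochondrial membrane, reached log2 CPM of 4.19, 5.61 and 5.51 in OKF6, 4.78, 4.71 and 4.75 in SCC25 +YBX1, and 3.28, 4.14 and 4.57 in SCC15 +YBX1. SCC15 lay below SCC25 in all libraries, but the difference was not called (log2 change -0.75, SE 0.42, limma adjusted p 0.173). Against OKF6, with which it overlapped, it was called at the edge of the threshold (-1.10, SE 0.42, 0.0474). That call remained only without OKF6 replicate 1 (0.00247) or without SCC15 +YBX1 replicate 3 (0.0322), and leaving out any other library of these groups gave adjusted p-values of 0.0845 to 0.176. Of 86 pieces from the last 500 bases of BAK1, 31 (36.0%) matched another place in hg38 equally well, so its reads are uncertain, and the pseudogene GGNBP1 lies on the opposite strand over the same bases. For the other 9 genes no piece did.

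BBC3, PMAIP1 and BCL2L11 are the BH3-only genes that were called higher in SCC15 than in SCC25. They encode PUMA, NOXA and BIM. PUMA and BIM can bind all the guardians, and NOXA binds chiefly MCL1. Their RefSeq promoter windows (GRCh38.p14, 250 bases before and 50 after the start site, written along the gene's strand) are printed because these genes were higher together and because YBX1 takes its name from the Y box. Capitals mark ATTGG or its reverse complement CCAAT, the core of that box, searched on both strands. The windows are chr19:47232618-47232917 (minus strand) for BBC3, chr2:111120664-111120963 (plus) for BCL2L11 and chr18:59899746-59900045 (plus) for PMAIP1.
BBC3: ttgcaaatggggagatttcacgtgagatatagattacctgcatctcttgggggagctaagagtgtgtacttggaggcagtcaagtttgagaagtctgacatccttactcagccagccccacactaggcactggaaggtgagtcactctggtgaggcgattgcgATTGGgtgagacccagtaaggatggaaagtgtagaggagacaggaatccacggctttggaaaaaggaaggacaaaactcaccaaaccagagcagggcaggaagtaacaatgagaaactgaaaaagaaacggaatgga
BCL2L11: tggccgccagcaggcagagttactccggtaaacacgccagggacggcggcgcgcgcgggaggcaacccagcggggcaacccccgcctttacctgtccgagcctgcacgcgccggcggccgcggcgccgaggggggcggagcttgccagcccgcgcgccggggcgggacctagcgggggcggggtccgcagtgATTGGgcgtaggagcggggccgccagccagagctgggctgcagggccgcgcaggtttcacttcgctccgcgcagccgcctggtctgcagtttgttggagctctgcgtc
PMAIP1: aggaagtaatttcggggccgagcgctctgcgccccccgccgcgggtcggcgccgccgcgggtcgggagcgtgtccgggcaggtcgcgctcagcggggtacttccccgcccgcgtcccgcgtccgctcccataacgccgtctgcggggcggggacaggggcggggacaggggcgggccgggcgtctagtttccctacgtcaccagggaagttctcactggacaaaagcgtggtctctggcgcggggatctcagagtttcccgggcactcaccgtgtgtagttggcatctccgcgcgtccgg
The core begins 87 bases before the BBC3 start and 58 bases before the BCL2L11 start, and these letters are not in the PMAIP1 window. BAX had 2 matches, beginning 203 and 148 bases before its start, and BAK1 also had 2. Windows existed for 8 of the 10 genes, not for MCL1 and BIK, and 4 of their 13 windows held a match, where 34.6% of all 35116 promoter windows did. The BBC3 window was 48.0% G and C with 5 CpG sites, against 71.3% and 42 sites for PMAIP1 and 74.7% and 39 sites for BCL2L11. A match of letters is a description of the sequence and not a binding site, and which start site these lines use was not tested.

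BBC3 (chr19:47220822-47232766, minus strand) had log2 CPM of 3.56, 5.58 and 3.51 in OKF6, 4.99, 5.62 and 4.83 in SCC25 +YBX1, and 7.16, 6.49 and 6.43 in SCC15 +YBX1. Every SCC15 library was above every library of the other lines. The gene was 2.92-fold higher in SCC15 than in SCC25 (log2 change 1.54, SE 0.50, limma adjusted p 0.0279) and 5.56-fold higher than in OKF6 (2.47, SE 0.50, 0.00178). The second call held with any 1 library left out, with a log2 change of 3.16 without OKF6 replicate 2. The first passed only without SCC25 +YBX1 replicate 2 (0.0366), and the other fits with a library left out gave adjusted p-values of 0.0504 to 0.108. Fitted on the 6 libraries of SCC15 and SCC25 alone, the adjusted p was 0.000554. OKF6 replicate 2, with 212 BBC3 reads where the others had 61 and 67, stood apart, and without it SCC25 was called higher than OKF6 (log2 change 1.61, adjusted p 0.00403, against 0.93 and 0.184 with it).

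BCL2L11 (chr2:111119378-111168444, plus strand) showed little spread within the cancer lines. Log2 CPM was 5.19, 5.06 and 5.28 in SCC15 +YBX1, 3.55, 3.97 and 3.65 in SCC25 +YBX1, and 3.44, 1.50 and 3.47 in OKF6. The 3 lines did not overlap. It was 2.73-fold higher in SCC15 than in SCC25 (log2 change 1.45, SE 0.48, limma adjusted p 0.0308) and 5.19-fold higher than in OKF6 (2.38, SE 0.48, 0.00178). Without OKF6 replicate 2, the library with 12 reads, the latter was 1.72. In the comparison with SCC25 none of the 6 fits with a library left out passed, with adjusted p-values of 0.0577 to 0.0917 and log2 changes of 1.36 to 1.57. Fitted without OKF6, whose libraries ranged from 12 to 65 reads, the adjusted p was 0.000166. The long noncoding gene MIR4435-2HG lies on the opposite strand over the 3′ end of BCL2L11, and whether the counting used strand is not given in the sources used here, so reads of the pair cannot be told apart with certainty.

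PMAIP1 (chr18:59899996-59904305, plus strand) had log2 CPM of 4.87, 4.90 and 4.87 in SCC15 +YBX1, 4.01, 4.11 and 3.42 in SCC25 +YBX1, and 4.02, 4.87 and 4.61 in OKF6. SCC15 was above all SCC25 libraries and overlapped with OKF6. The gene was 2.05-fold higher in SCC15 than in SCC25 (log2 change 1.04, SE 0.30, limma adjusted p 0.0161). The call was lost without SCC15 +YBX1 replicate 2 (0.0508) and without SCC25 +YBX1 replicate 3 (log2 change 0.82, 0.0703). SCC15 and OKF6 were not called different (0.38, SE 0.30, 0.307). SCC25 was not called lower than OKF6 (-0.65, SE 0.30, 0.121), though it was without OKF6 replicate 1 (-0.89, 0.0225).

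BID (chr22:17734138-17774770, minus strand), which caspase-8 cleaves and which links the death receptors to the mitochondria, was higher in both cancer lines than in OKF6. Log2 CPM was 5.51, 5.05 and 4.89 in OKF6, 5.81, 6.16 and 5.78 in SCC25 +YBX1, and 5.95, 6.48 and 6.14 in SCC15 +YBX1. All cancer libraries lay above OKF6, and the cancer lines overlapped. BID was 2.06-fold higher in SCC15 than in OKF6 (log2 change 1.04, SE 0.23, limma adjusted p 0.00341), with any 1 library left out. It was 1.70-fold higher in SCC25 than in OKF6 (0.77, SE 0.23, 0.0302), but that call remained only without OKF6 replicate 1 (0.00539) and otherwise gave adjusted p-values of 0.0618 to 0.124. With only SCC25 and OKF6 in the fit it was 0.0546. Between SCC15 and SCC25 the log2 change was 0.27 with a 95% interval of -0.24 to 0.79.

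BIK (chr22:43110750-43129712, plus strand), a BH3-only gene of the endoplasmic reticulum, was lower in SCC15 than in either other line. It had 31, 97 and 70 reads in OKF6, 19, 46 and 19 in SCC25 +YBX1, and 8, 0 and 12 in SCC15 +YBX1. Every SCC15 library lay below the others. Per normalised library size, the summed reads were 11.4 times higher in OKF6 than in SCC15 +YBX1 (exact 95% interval 7.17 to 19.0). In SCC25 +YBX1 they were 4.95 times higher than in SCC15 +YBX1 (3.01 to 8.51), and these intervals cover counting error only. Limma gave log2 changes of -4.21 (SE 1.06, adjusted p 0.00694) against OKF6 and -3.03 (SE 1.06, 0.0397) against SCC25. The first held with any 1 library left out, but its size ran from -5.01 without SCC15 +YBX1 replicate 3 to -2.75 without replicate 2. The second rested on the library with no read: without SCC15 +YBX1 replicate 2 it was -1.58 with an adjusted p of 0.0942, and it was also lost without SCC25 +YBX1 replicate 1 (0.0704), 2 (0.132) or 3 (0.0772).

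**Figure D3:**
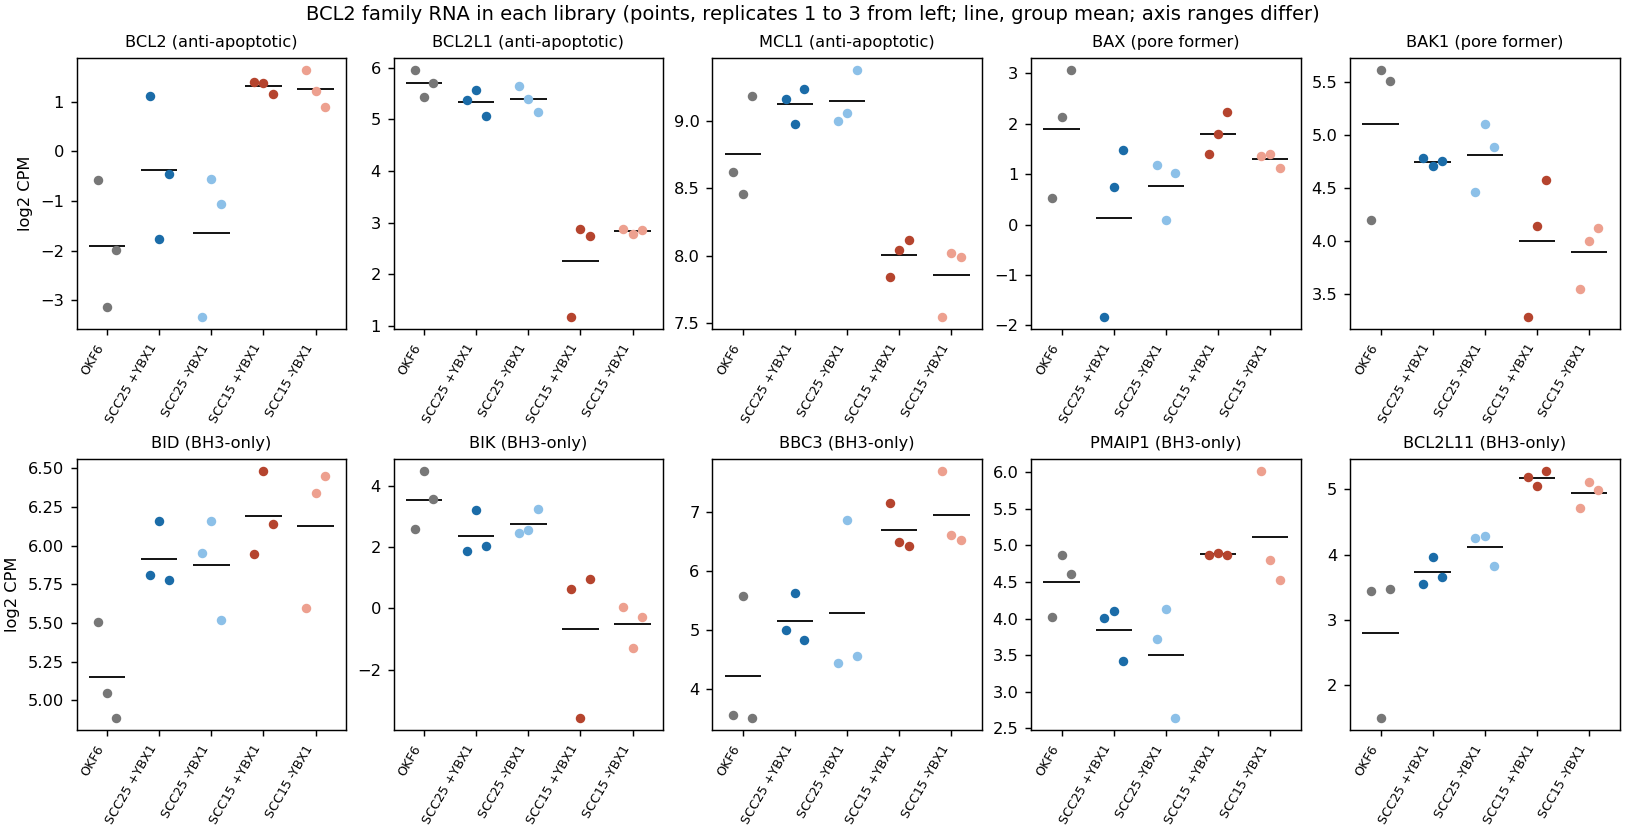
Log2 CPM (vertical axes, ranges differ) of each gene in the 15 libraries, 3 points a group with the group mean as a line. BCL2L1, MCL1 and BIK sit lowest in the SCC15 groups and BBC3 and BCL2L11 highest there, while + and -YBX1 points of a line overlap for all 10 genes.

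The knockdown asked whether loss of YBX1 moved these genes. All -YBX1 libraries and no +YBX1 library received doxycycline, so loss of YBX1 and the drug cannot be told apart. YBX1 fell 4.03-fold in SCC25 (log2 change -2.01, SE 0.35) and 4.45-fold in SCC15 (-2.15, SE 0.35), lower in 3 of 3 libraries in each line, but with adjusted p-values of 0.290 and 0.326. No gene at all was called in either line (0% of 12995). At an unadjusted p under 0.05 there were 401 genes in SCC25 (3.09%) and 302 in SCC15 (2.32%), and voom on the recovered reads also called 0. Averaged over both lines the one gene called was YBX1 (log2 change -2.08, SE 0.24, adjusted p 0.0103), 0.0077% of all. None of the 10 BCL2 family genes was called in SCC25, in SCC15, in their mean or in their difference (0% of all genes called), and none had an unadjusted p under 0.05. The + and - groups overlapped for all 10 genes in both lines, where 7.31% of all genes in SCC25 and 7.04% in SCC15 did not overlap. The median log2 change of the family was 0.06 in SCC25 and -0.06 in SCC15, against -0.02 and -0.01 for all genes.

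**Figure D4:**
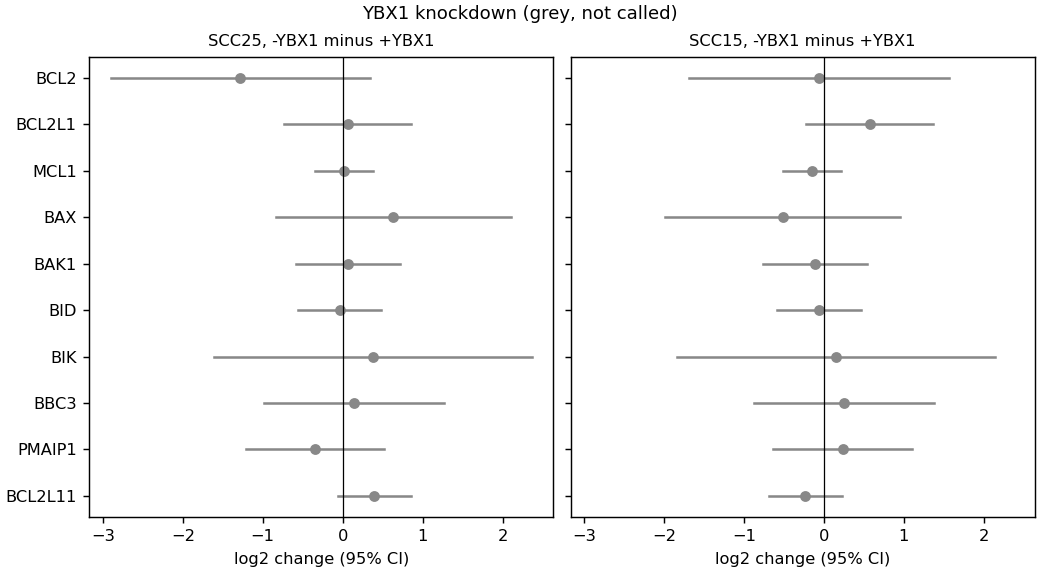
Fitted log2 change (points) and 95% confidence interval (bars) of each gene after YBX1 knockdown in SCC25 and in SCC15. Every interval includes 0. It is narrow for MCL1, from -0.34 to 0.38 in SCC25, and wide for BIK, from -1.61 to 2.37.

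How large a change could have been missed differed by gene. For MCL1 the log2 change had a 95% interval of -0.34 to 0.38 in SCC25, and of -0.51 to 0.21 in SCC15. Its 6 -YBX1 libraries had log2 CPM of 9.004, 9.06 and 9.38 in SCC25 and 7.55, 8.02 and 7.99 in SCC15. BID was bounded between -0.56 and 0.48 in SCC25 and between -0.58 and 0.46 in SCC15. BAK1 lay between -0.58 and 0.72 and between -0.76 and 0.54. For BCL2L1 the change was 0.06 (-0.73 to 0.85) in SCC25 and 0.57 (-0.22 to 1.36) in SCC15. The SCC15 value rested on the low +YBX1 replicate 1, and without it the change was 0.03. BAX, BCL2 and BIK had at most 48 reads in any cancer library, and their intervals were wide, from -0.84 to 2.10 for BAX and from -1.61 to 2.37 for BIK in SCC25. In SCC25 BCL2 had 0, 3 and 2 reads after knockdown and 11, 1 and 3 before (log2 change -1.28, 95% interval -2.90 to 0.34).

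BCL2L11 had the smallest unadjusted p among the 10 genes in SCC25. SCC25 -YBX1 libraries held 4.26, 4.28 and 3.82 log2 CPM of it and were thus higher in 3 of 3 same-numbered pairs, by 0.71, 0.31 and 0.17, but the groups overlapped (log2 change 0.40, SE 0.21, unadjusted p 0.0823, limma adjusted p 1.00). In SCC15 -YBX1 it was 4.72, 5.12 and 5.00, with a change of -0.23 (SE 0.21). The difference between the lines was 0.63 (95% interval -0.02 to 1.27, unadjusted p 0.0550, adjusted p 1.00). These values do not pass the correction, and the interval does not show that the lines respond alike.

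BBC3 and PMAIP1 stood out by library rather than by group. BBC3 had 1498, 609 and 616 reads in the SCC15 -YBX1 libraries and 109, 603 and 122 in the SCC25 -YBX1 libraries. PMAIP1 had 467, 173 and 154 reads in SCC15 -YBX1 and 66, 90 and 32 in SCC25 -YBX1. A single library was thus high in each arm for BBC3, replicate 1 in SCC15 and replicate 2 in SCC25, and PMAIP1 was high in the first of them. Stress-response genes on the list of regulators, named here after their values were seen, were high in those libraries. ATF3 reached 7.11 log2 CPM in SCC15 -YBX1 replicate 1, against 3.73 and 4.36 in the other replicates. CHAC1 was 7.11 there against 3.48 and 2.37, DDIT3 (CHOP) 6.295 against 3.40 and 3.74, and TRIB3 6.29 against 4.68 and 4.33. In SCC25 -YBX1 replicate 2, CHAC1 was 5.46 against 3.41 and 3.65, DDIT3 6.00 against 5.24 and 4.60, and TRIB3 7.06 against 5.89 and 6.02, while ATF3 was 3.62 against 3.74 and 2.18. ATF3 and DDIT3 are transcription factors of the integrated stress response, and CHAC1 and TRIB3 are among its known targets. In that SCC25 library the top 10 genes held 16.2% of the counts, the largest share of the 15 libraries. The SCC15 +YBX1 library numbered 1 had the most BBC3 reads of its group too, 783 against 533 and 558. Taken by same-numbered pairs, the BBC3 change was 0.54, 0.13 and 0.10 in SCC15 and -0.55, 1.25 and -0.27 in SCC25. For PMAIP1 it was 1.14, -0.10 and -0.34 in SCC15. The high library thus set the sign of the mean for BBC3 in SCC25 and for PMAIP1 in SCC15. BBC3 was higher in 3 of 3 same-numbered SCC15 pairs, with a mean log2 change of 0.25 that was not called. That change was -0.12 when SCC15 -YBX1 replicate 1 alone was left out, so the high library set its sign too. The part of the stress genes in these values was not tested.

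**Figure D5:**
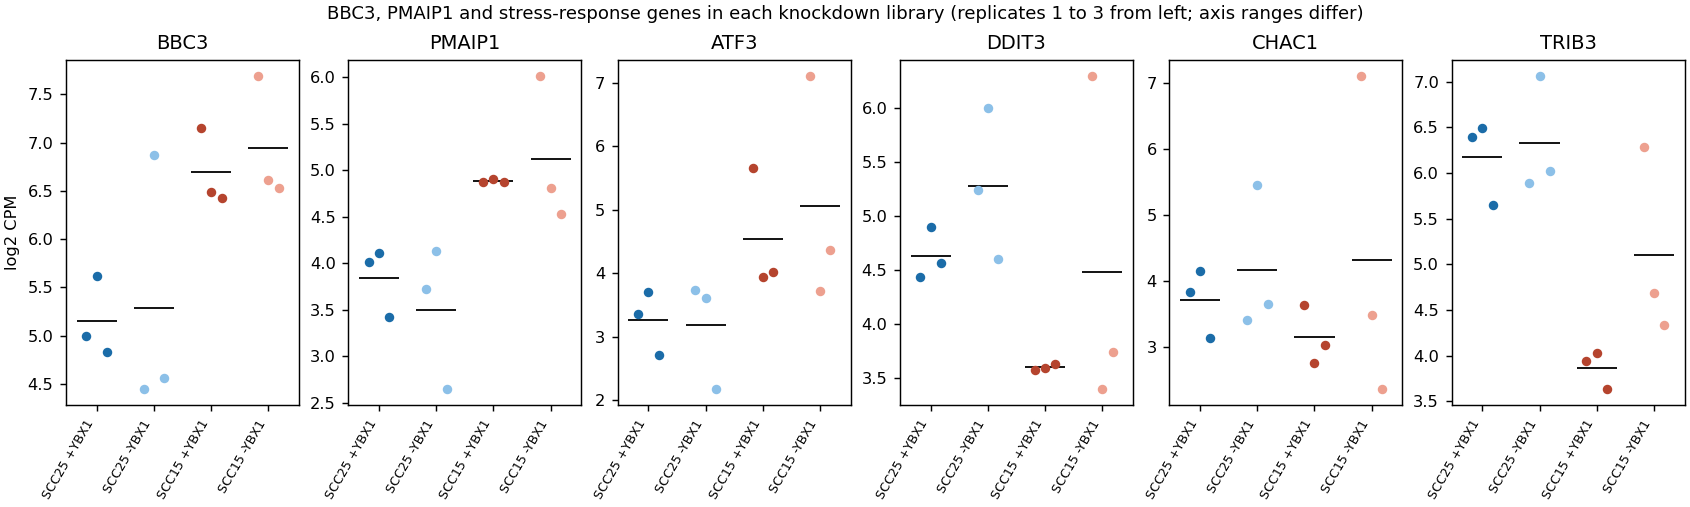
Log2 CPM (vertical axes, ranges differ) of BBC3, PMAIP1, ATF3, DDIT3, CHAC1 and TRIB3 in the 12 knockdown libraries, 3 points a group with the mean as a line. SCC15 -YBX1 replicate 1 is the highest SCC15 point in all 6 panels. SCC25 -YBX1 replicate 2 is the highest SCC25 point for BBC3, DDIT3, CHAC1 and TRIB3 but not for ATF3. For PMAIP1 it is nearly level with SCC25 +YBX1 replicate 2 (4.13 against 4.11).

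The order of the groups followed the line more than the knockdown, which is not particular to the family. Between lines 43.3% to 66.6% of all genes did not overlap, and after knockdown 7.04% to 7.31%. For BCL2L1, MCL1 and BIK the first gap without overlap in the order of group means lay above both SCC15 groups. The OKF6 and SCC25 groups all stood above that gap. For BAK1 the gap lay only between the neighbours SCC25 +YBX1 and SCC15 +YBX1. OKF6 and SCC25 -YBX1 reached down to 4.19 and 4.46 log2 CPM of BAK1, below the highest SCC15 +YBX1 library at 4.57. For BCL2L11 both SCC15 groups stood above both SCC25 groups, which stood above OKF6, with no overlap at either step. For BID the only gap lay above OKF6. For BAX, BBC3, BCL2 and PMAIP1 every pair of neighbouring groups in the order overlapped.

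The rest of the family and the genes around it were counted by list, each count to be read against the share of all genes called, which was 43.6% in SCC15 against SCC25, 50.3% in SCC15 against OKF6 and 30.2% in SCC25 against OKF6. Of 13 other BCL2 family genes 10 were measured. In SCC15 against SCC25, 2 were called higher and 1 lower, and among them BMF, a BH3-only gene, was higher (24 to 61 reads against 4 to 5, log2 change 2.79, limma adjusted p 0.00203). The others, HRK higher and BOK lower, lay below the level set for named genes and are named after their values were seen. Against OKF6, SCC15 had 3 higher and 3 lower. BCL2L12 was higher (1.39, 0.00298), and BCL2L2, which encodes the guardian BCL-W, and the mitophagy receptor BNIP3L were lower (-3.71, 6.65e-05, and -2.03, 9.98e-05). The same 3 genes were called in the same directions in SCC25 against OKF6, which shares the OKF6 libraries (1.06, 0.0237, lost in 2 of 6 fits with a library left out, then -2.46, 0.00305, and -1.38, 0.00357), among 2 higher and 2 lower.

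Downstream of the mitochondria, 5 of 19 genes were higher and 3 lower in SCC15 than in SCC25, near the 43.6% of all genes called, with a median log2 change of 0.11. DFFB, the caspase-activated nuclease, rose by 1.95 (limma adjusted p 0.00111), the mitochondrial flavoprotein gene AIFM1 by 1.59 (0.000179) and CASP9, the initiator caspase of the apoptosome, by 1.51 (0.0219, lost in 5 of 6 fits with a library left out). BIRC2, an inhibitor of apoptosis gene, was lower (-1.21, 0.00490). Against OKF6, 7 were higher and 4 lower in SCC15, and APAF1, the apoptosome scaffold, was lower (-1.24, 0.0283, lost in 4 of 6 fits with a library left out). In SCC25 against OKF6, 5 were higher and 1 lower, the one being APAF1 (-1.74, 0.00981), and BIRC2 was higher (1.25, 0.00694).

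The death receptor branch feeds into the family through BID. Of 11 genes measured out of 13, 8 were called lower and 0 higher than in SCC25, and 9 lower and 0 higher than in OKF6, with medians of -1.25 and -2.04, where 23.6% and 23.4% of all genes were called lower and the medians of all genes were -0.01 and 0.10. TNFSF10, the gene of the ligand TRAIL, had 3, 1 and 0 reads in SCC15 +YBX1 and 217, 217 and 82 in SCC25 +YBX1. FADD, the adaptor that recruits caspase-8, was lower in SCC15 than in SCC25 (log2 change -3.10, limma adjusted p 1.31e-06). It was the one gene of this branch called higher in SCC25 than in OKF6 (3.17, 6.85e-06), from group means of 9.25 and 6.09 log2 CPM. CASP8, whose product cleaves BID, was lower in SCC15 (-2.42, 6.68e-05) and in SCC25 (-1.25, 0.0108) than in OKF6.

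Of 17 genes that regulate the family or its proteins, 2 were higher and 4 lower in SCC15 than in SCC25 (limma), below the share of all genes called (43.6%). FOXO4, of the forkhead factors, was higher (log2 change 4.30, limma adjusted p 0.000517). The epithelial transcription factor gene TP63 had 0, 0 and 1 reads in SCC15 +YBX1 and 475 to 1058 in SCC25 +YBX1, TRIB3 was lower (-2.31, 0.000612), and so was the co-chaperone gene BAG3 (-1.94, 7.05e-05). Against OKF6, 4 were higher and 6 lower in SCC15, and 2 higher and 2 lower in SCC25, where 50.3% and 30.2% of all genes were called. These lists were written with results of these data known and are given as counts. After knockdown 0 of the 77 measured genes on the 5 wider lists were called in either line, as was the case for 0% of all genes.

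For each member the gene with the most similar pattern was sought, by the root mean square difference of the 5 group means after centring, on the log2 scale. The nearest were RAB32 for BCL2L1 (0.06), SSR3 for MCL1 (0.03), CCR10 for BCL2 (0.17), PIBF1 for BAX (0.09) and MYO19 for BAK1 (0.02). For the BH3-only genes they were PXN-AS1 for BBC3 (0.06), TAF3 for BCL2L11 (0.05), STRBP for PMAIP1 (0.06), C2CD2L for BID (0.03) and GSDME for BIK (0.10). With 5 points and 12995 genes to choose from, near matches are a description of pattern, and no member was the nearest gene of another.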

How the data were processed

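QuantSeq 3′ FWD reads were trimmed (Cutadapt), aligned to hg38 (HISAT2), counted per gene (featureCounts), filtered and normalised (limma) by the authors. Per the file headers and values, the deposited tables hold log2 CPM with a prior of 0.5 reads. Taking the lowest value as 0 gave whole reads for 100% of values (tolerance 0.02). Each value stands on 4075290 to 6118501 counted reads. Floors and the exact intervals of summed reads cover counting error only, whereas the limma intervals rest on the spread between libraries. All 12995 genes were fitted with limma 3.58.1 in R 4.3.3 (eBayes with trend, Benjamini-Hochberg), the lines and the knockdown each in their own table, without a replicate block. Same-numbered + and -YBX1 libraries deviated together over 6497 genes (r 0.135, 0.470 and 0.425 in SCC25, 0.498, 0.312 and 0.117 in SCC15). The 2 libraries of a pair were each other's closest match in only 2 of 3 SCC25 pairs and 1 of 3 SCC15 pairs. The replicate numbers come from the labels, and the block changed no knockdown call. Promoters are RefSeq's and gene positions GENCODE 44's. The code was tested on simulated reads. Wider lists name up to 3 genes each way by log2 change, above a mean of 1 log2 CPM. A list of the 5 and some single genes are not reported here. Members and lists were chosen with earlier results of these data known. Alternatives were voom, the block, other scalings, a prior of 2, a filter on low genes, only the groups compared and leaving out each library.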

Additional observations from a re-analysis of the deposited data

How the results depend on the processing

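The called members kept their direction under each alternative run. When the fit held SCC25 and OKF6 alone, 0 members were called in SCC25 against OKF6 in place of 1 (BID, adjusted p 0.0546). With any 1 library left out, 2 to 4 members were called in SCC15 against SCC25, 7 to 8 in SCC15 against OKF6 and 0 to 3 in SCC25 against OKF6, and the wider lists of the last comparison gave 12 to 36 calls. The share of all genes called in these smaller fits is not given here. The counts therefore do not show whether members or list genes lost or gained calls more than other genes. Between the groups of the 3 line comparisons, same-numbered libraries had r of 0.021, -0.050 and -0.198 (SCC15 and SCC25), 0.134, -0.122 and 0.264 (SCC15 and OKF6) and -0.047, 0.159 and -0.147 (SCC25 and OKF6), never all over 0.1, so they were taken to share only a number. Across groups not compared, r reached 0.467 (OKF6 and SCC25 -YBX1, replicate 1). With the replicate block, all genes called came to 5451 in SCC15 against SCC25, 6401 in SCC15 against OKF6 and 3708 in SCC25 against OKF6, and among the members the call of BIK in SCC15 against SCC25 was lost (0.0564) and no other. For BAK1 in SCC15 against OKF6 the adjusted p was 0.101 with only these groups fitted, 0.076 with library medians set equal and 0.0630 with quantiles set equal. Equal medians moved the median of all genes by 0.15 in SCC15 against SCC25 and by 0.16 against OKF6, and quantiles by 0.18 in SCC15 against SCC25 and by -0.18 in SCC25 against OKF6. Values that turned sign were all uncalled: BAX in SCC15 against OKF6 with medians equal (0.065), BCL2 in SCC25 against OKF6 with quantiles equal (-0.23), and, with a prior count of 2, BIK in the SCC15 knockdown (-0.22) and BAX in the mean knockdown effect (-0.042). The cause was not tested. Depth limits BAX, BCL2 and BIK, which were left out by the filter on low genes. Other uncalled log2 changes crossed 0 when 1 library was left out. The range in SCC15 against OKF6 was BAX -0.79 to 0.48. The ranges in the SCC25 knockdown were BCL2L1 -0.074 to 0.19, MCL1 -0.096 to 0.090, BAX -0.35 to 1.31, BAK1 -0.077 to 0.25, BID -0.18 to 0.14, BBC3 -0.65 to 0.57 and PMAIP1 -0.66 to 0.083. The ranges in the SCC15 knockdown were BCL2 -0.25 to 0.11, MCL1 -0.23 to 0.0041, BAK1 -0.47 to 0.18, BID -0.22 to 0.20, BIK -1.30 to 0.95, BBC3 -0.12 to 0.49 and PMAIP1 -0.21 to 0.53. The ranges in the knockdown effect in SCC25 minus that in SCC15 were BCL2L1 -0.81 to 0.031, BAK1 -0.11 to 0.53, BID -0.24 to 0.20, BIK -0.57 to 1.68 and BBC3 -0.90 to 0.31. The ranges in the mean knockdown effect were MCL1 -0.12 to 0.011, BAX -0.43 to 0.40, BAK1 -0.20 to 0.12, BID -0.13 to 0.083, BIK -0.46 to 0.67, BBC3 -0.20 to 0.41 and PMAIP1 -0.28 to 0.16.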
